A study of Mus musculus with 4 samples.

Results

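The mitochondrial genome transcripts described here are the genes of the count table whose symbol starts with mt-. There were 13 such genes of 26022 in the table, and all 13 encode proteins. The GENCODE M21 annotation of the GRCm38 mitochondrial chromosome (chrM) lists 37 genes, and its 2 ribosomal RNA and 22 transfer RNA genes were not analysed here. The rule takes members by symbol.

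The study asked how late 2-cell (2C) mouse embryos respond to Mdivi-1, a cell-permeable small molecule used to inhibit DRP1, the GTPase (gene *Dnm1l*) that constricts mitochondria during fission. Zygotes of ICR mice, an outbred strain, came from hormone-primed females mated with ICR males and were cultured for 16 h in KSOM medium, either without Mdivi-1 (control, 2 libraries) or with 200 µM Mdivi-1 (2 libraries). Each group drew on 8 to 10 pooled late 2C embryos without any genetic modification, and RNA was amplified by Smart-Seq2, which primes on poly(A) tails and keeps neither strand nor molecular tags. Neither the labels nor the methods tell whether libraries of a group came from separate females or cultures, so p-values measure only the spread between these libraries, which may be technical. The methods name DMSO as the solvent of Mdivi-1 in stem cell culture and name no vehicle for the control embryos.

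As background, the mammalian mitochondrial genome is a small circle inherited through the oocyte. It is transcribed from both strands as long precursors, from which tRNAs lying between the coding regions are cut out to release the mRNAs. The mRNAs encode core subunits of respiratory complexes I, III, IV and V, whose other subunits are made from nuclear genes. Mature mitochondrial mRNAs carry almost no untranslated sequence, and most receive a short poly(A) tail, which in several of them completes the stop codon.

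The ends of the annotated mRNAs are shown because poly(A)-primed libraries copy RNA from its tail. Sequences were taken from the GENCODE M21 transcripts (GRCm38), written 5′ to 3′ on the gene's own strand, with the last bases of the reading frame in capitals. In 10 of the 13 genes the annotated transcript ended in a complete TAA or TAG codon. In the other 3, *mt-Co3*, *mt-Nd4* and *mt-Cytb*, it ended in a single T.
mt-Cytb: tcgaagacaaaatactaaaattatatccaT
mt-Co3: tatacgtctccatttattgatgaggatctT
mt-Nd4: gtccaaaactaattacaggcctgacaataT
mt-Co1: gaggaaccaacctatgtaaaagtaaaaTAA
mt-Nd1: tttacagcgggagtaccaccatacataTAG
The first codon was ATG in 9 genes, ATA in *mt-Nd2*, ATC in *mt-Nd5*, ATT in *mt-Nd3* and GTG in *mt-Nd1*.

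Coding regions of this genome also overlap, which matters for counting because a read over 2 genes is ambiguous to the counter used. *mt-Atp8* and *mt-Atp6* shared 43 bases and *mt-Nd4l* and *mt-Nd4* shared 7 bases on the same strand, while *mt-Nd5* and *mt-Nd6* shared 14 bases on opposite strands. *mt-Atp6* and *mt-Co3* shared 1 base. The plus strand around the first 3 overlaps (GRCm38) is printed with the shared bases in capitals.
mt-Atp8 and mt-Atp6, chrM:7907-7989: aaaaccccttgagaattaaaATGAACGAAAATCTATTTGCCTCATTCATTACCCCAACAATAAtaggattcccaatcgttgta
mt-Nd4l and mt-Nd4, chrM:10147-10193: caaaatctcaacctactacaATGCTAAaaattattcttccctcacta
mt-Nd5 and mt-Nd6, chrM:13532-13585: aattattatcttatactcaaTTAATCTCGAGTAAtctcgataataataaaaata
Without strand information, reads over the shared stretch of *mt-Nd5* and *mt-Nd6* cannot be assigned to either gene.

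The libraries held 17712075 to 20077326 counts and 14793 to 16311 genes with at least 1 count. Of 9 late 2C markers, 8 had at least 10 CPM on average, and the remaining marker, *Pou5f1*, lay at 0.918 to 1.95 CPM. Summed markers of other cells were low, at 20.2 to 35.1 CPM for 13 cumulus and granulosa genes (5 of them at 0 in every library) and 59.7 to 76.2 CPM for 6 blood genes (2 at 0). *Dnm1l* was at 37.8 and 33.1 CPM in controls and 93.6 and 91.2 CPM in treated embryos, a log2 fold change of 1.38 (SE 0.31) that missed the threshold by edgeR (adjusted p = 0.153) and passed it by DESeq2 (adjusted p = 0.00971). Control replicate 2 stood apart in its scaling, with a TMM factor of 0.835 against 1.04 to 1.10 in the other libraries, so the fold changes, summed shares and list medians are also given without it.

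Transcripts of the mitochondrial genome were a large part of these libraries, and their summed share did not separate treated from control embryos. The 13 mRNAs together took 15.1% and 18.8% of all counts in the control libraries and 15.98% and 14.2% in the Mdivi-1 libraries. The group means were 16.96% ± 2.57 and 15.1% ± 1.23 (SD, n = 2 each), and the groups overlapped. The log2 ratio of treated to control was -0.16 with p = 0.667 by a two-sided exact permutation test over the libraries, which with 2 against 2 cannot give less than 0.333. It was -0.32 without control replicate 1 and -0.0053 without control replicate 2. The 95% Wilson interval of the share in control replicate 1 ran from 15.13% to 15.16% and covers counting error only. In these bulk samples, fewer mitochondrial transcripts per embryo and more RNA of other genes cannot be told apart.

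The level of a single gene is given below in counts per 1000000 (CPM) scaled between libraries by edgeR's trimmed mean of M values (TMM), and levels of different genes are compared per kilobase of annotated transcript. *mt-Cytb*, cytochrome b of complex III, was the most abundant gene of the whole table in all 4 libraries. Of the 20 genes with the highest mean CPM, 7 were mitochondrial. The lowest member, *mt-Nd3*, ranked between 3972 and 6592 among all genes by count.

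**Figure D1:**
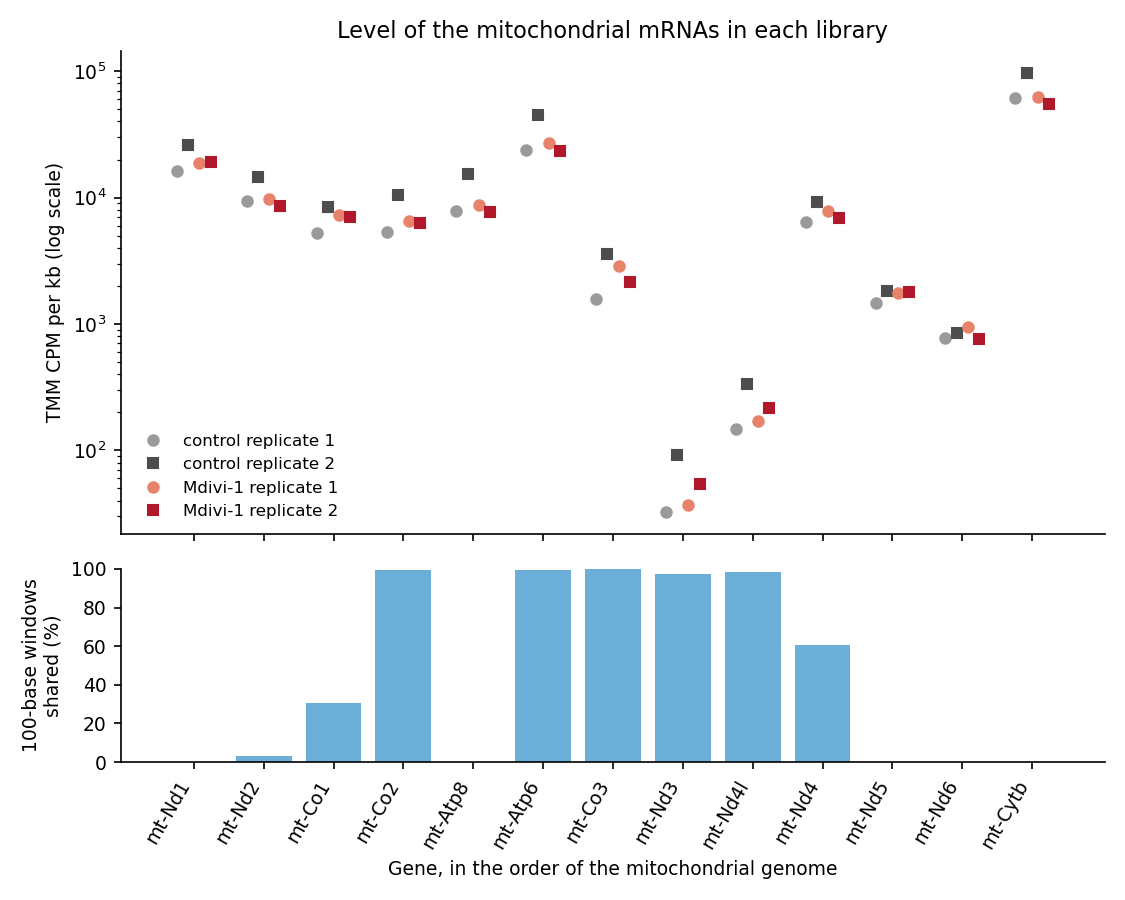
Upper panel, TMM CPM per kilobase (log scale) of each of the 13 mitochondrial mRNAs in the 4 libraries, in the order of the mitochondrial genome. Circles are replicate 1 and squares replicate 2, in grey for control and red tones for Mdivi-1. Lower panel, percent of all 100-base windows of each gene that are identical to a stretch of an annotated nuclear transcript. The order of levels was nearly the same in every library, from *mt-Cytb* down to *mt-Nd3*, and both *mt-Atp6* near the top and *mt-Nd3* at the bottom had over 95% shared windows.

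Complex III has a single subunit from this genome. *mt-Cytb* (ENSMUSG00000064370, chrM:14145-15288, plus strand, 1144 bases), the subunit that carries the complex's haem b groups, was at 70004 and 111276 CPM in control embryos and 71060 and 62531 CPM in treated embryos. Control replicate 2 was the highest library, and the other 3 lay close together. The fitted log2 fold change was -0.44 (SE 0.48, 95% interval -1.56 to 0.67, edgeR quasi-likelihood test, adjusted p = 0.735). As a share of all counts it took 7.67% and 9.29% in controls and 7.48% and 6.49% after Mdivi-1, and on that scale the groups did not overlap.

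Complex I, which takes electrons from NADH, has 7 subunits from this genome, all in its membrane arm. *mt-Nd1* (ENSMUSG00000064341, chrM:2751-3707) lies at the quinone site next to the peripheral arm and was the highest of them, at 15571 and 25100 CPM in controls and 17984 and 18248 CPM in treated embryos. *mt-Nd2* (chrM:3914-4951), an antiporter-like subunit, was at 9786 and 14995 CPM in controls and at 10121 and 8855 CPM after Mdivi-1. *mt-Nd4* (chrM:10167-11544), of the same antiporter-like fold, was at 8879 and 12811 CPM in controls and at 10732 and 9556 CPM after Mdivi-1. In each of these 3 genes control replicate 2 was the highest library and the groups overlapped.

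*mt-Nd5* (chrM:11742-13565), the last antiporter-like subunit and the longest gene of the set at 1824 bases, was at 2672 and 3334 CPM in controls and at 3221 and 3259 CPM in treated embryos. *mt-Nd6* (chrM:13552-14070) is the only member on the minus strand and was at 404 and 442 CPM in controls and 491 and 391 CPM after Mdivi-1. It was the only member whose highest library was not control replicate 2. The remaining pair of small membrane subunits was scarce. *mt-Nd4l* (chrM:9877-10173) was at 43.6 and 99.2 CPM in controls and 50.4 and 63.7 CPM in treated embryos, and *mt-Nd3* (chrM:9459-9806) was at 11.3 and 32.0 CPM in controls and 12.9 and 18.9 CPM in treated embryos. As in every other member, the control replicates of *mt-Nd3* lay further apart in CPM than the group means. Summed over its 7 genes, complex I took 4.09% and 4.74% of all counts in controls and 4.49% and 4.19% after Mdivi-1 (log2 ratio -0.02, exact permutation p = 1.0). This ratio was -0.13 without control replicate 1 and 0.083 without control replicate 2.

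Complex IV, cytochrome c oxidase, takes its 3 core subunits from this genome. *mt-Co1* (ENSMUSG00000064351, chrM:5328-6872), which holds the oxygen-reducing centre, was at 8085 and 13054 CPM in controls and at 11303 and 10839 CPM in treated embryos. *mt-Co2* (chrM:7013-7696), which accepts electrons from cytochrome c, was at 3637 and 7177 CPM in controls and 4496 and 4298 CPM after Mdivi-1. *mt-Co3* (chrM:8607-9390) was at 1235 and 2792 CPM in controls and 2240 and 1690 CPM after Mdivi-1. In all 3 the treated libraries lay between the control libraries. The summed complex IV share was 1.42% and 1.92% in controls and 1.90% and 1.75% after Mdivi-1, a log2 ratio of 0.14 (exact permutation p = 1.0), which was -0.077 without control replicate 1 and 0.36 without control replicate 2.

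Complex V, ATP synthase, takes 2 subunits of its membrane part from this genome, and both are read from 1 transcript with overlapping frames. *mt-Atp6* (ENSMUSG00000064357, chrM:7927-8607), which forms the proton path, was at 16299 and 30691 CPM in controls and 18292 and 15916 CPM after Mdivi-1. *mt-Atp8* (chrM:7766-7969) was at 1591 and 3118 CPM in controls and 1772 and 1560 CPM after Mdivi-1. The count ratio of *mt-Atp8* to *mt-Atp6* was 0.0976 and 0.102 in controls and 0.0969 and 0.0980 in treated embryos, so this pair kept nearly the same proportion in every library. The summed complex V share was 1.96% and 2.82% in controls and 2.11% and 1.81% after Mdivi-1 (log2 ratio -0.26, exact permutation p = 0.667). Without control replicate 1 the ratio was -0.53, and without control replicate 2 it was -0.0017.

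Per kilobase, the members spanned a wide range of levels in an order that hardly differed between libraries. By the mean of the control libraries, *mt-Cytb* stood at 79231 CPM per kb, followed by *mt-Atp6*, *mt-Nd1*, *mt-Nd2*, *mt-Atp8*, *mt-Co2*, *mt-Nd4*, *mt-Co1*, *mt-Co3*, *mt-Nd5*, *mt-Nd6*, *mt-Nd4l* and *mt-Nd3*. The highest level was 1272 times the lowest. Neighbours in this order kept it in all 4 libraries except in 3 places. *mt-Nd2* was above *mt-Atp8* in 3 of 4 libraries, *mt-Nd4* above *mt-Co1* in 3 of 4, and *mt-Co2* above *mt-Nd4* in 1 of 4. Across the 13 genes, Pearson's r of log2 CPM between libraries was 0.994 to 0.998, as a description over genes that share a precursor and a library.

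Many members have near-identical copies in the nuclear genome, which limits how far levels can be compared between genes. In mice a block of nuclear pseudogenes on chromosome 1 (GRCm38, chr1:24611535-24616197) holds 7 annotated copies in a row. In all, 11 annotated copies with a match of at least 95% identity were found, and 0 of these genes were in the count table. Copies of lower identity were not counted among them, such as *Gm11410* (92.9% over 1142 bases of *mt-Cytb*) and *Gm11408* (93.6% over 519 bases of *mt-Nd6*). A read that falls wholly inside an identical stretch matches both places, and only uniquely mapped reads were counted. Every 100-base window, or nearly so, of *mt-Co3* (99.9%), *mt-Co2* (99.5%), *mt-Atp6* (99.5%), *mt-Nd4l* (98.5%) and *mt-Nd3* (97.6%) was identical to an annotated nuclear transcript. The share was 60.8% for *mt-Nd4*, 30.8% for *mt-Co1* and 3.19% for *mt-Nd2*, and 0% for *mt-Nd1*, *mt-Atp8*, *mt-Nd5*, *mt-Nd6* and *mt-Cytb*. The 0% for *mt-Atp8* cannot be read as absence, since the 233 bases between the neighbouring nuclear copies of *mt-Atp6* and *mt-Co2* hold no annotated transcript and no nuclear genome sequence was used here.

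The aligned chromosome 1 copies differed from the mitochondrial reference at very few bases, and the places where they do differ are shown in capitals. In *mt-Nd3* the single difference was T3C over 345 aligned bases, and in *mt-Co1* it was A1066T over 483 aligned bases, with the mitochondrial base first and positions counted from the first base of the mitochondrial transcript.
mt-Nd3: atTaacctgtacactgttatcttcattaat
nuclear copy Gm28438: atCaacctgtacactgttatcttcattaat
mt-Co1: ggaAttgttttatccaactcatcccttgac
nuclear copy Gm29216: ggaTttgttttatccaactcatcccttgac
There were 0 differences over 783 bases of *mt-Co3*, 681 of *mt-Co2*, 678 of *mt-Atp6*, 876 of *mt-Nd4* and 294 of *mt-Nd4l*. The low members *mt-Nd3* and *mt-Nd4l* were among the genes with shared windows, and so was *mt-Atp6*, the member with the second highest level. The part of shared sequence in the levels was not tested, and how the reference compares with the mitochondrial genome of ICR embryos was not tested either.

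Comparing each gene between treated and control embryos, no mitochondrial mRNA passed the test. Fitted log2 fold changes ran from -0.50 for *mt-Atp8* to 0.11 for *mt-Nd5*, with 10 below 0 and 3 above (*mt-Nd5*, *mt-Co1* and *mt-Nd6*), and a median of -0.30 beside 0.03 over the 14259 genes tested. All 13 members passed the low-count filter. With edgeR's quasi-likelihood test 0 of 13 passed an adjusted p of 0.05, where 0.0% of all genes tested did, and the members' adjusted p ranged from 0.619 to 0.986. At an unadjusted p under 0.05 the count was 0 of 13 as well, against 8.27% of all genes higher and 7.64% lower. After adjustment it was also 0 by DESeq2 (6.1% of all genes passed), by limma-voom (1.42%) and by the edgeR likelihood ratio test (6.1%).

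The intervals around these fold changes were wide. For *mt-Cytb* the 95% interval of the fold ran from 0.340 to 1.60, for *mt-Atp6* the log2 interval was -1.52 to 0.60, and for *mt-Nd6*, the narrowest, it was -0.64 to 0.75. Values within these intervals were not excluded by the fit to all 4 libraries. By TMM CPM, 0 of 13 members had treated libraries wholly above or below the controls, where 26.1% of all genes lay above and 23.9% below. By share of all counts, *mt-Co1* and *mt-Nd5* lay above and *mt-Nd2* and *mt-Cytb* below without overlap, beside 28.5% and 19.8% of all genes.

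**Figure D2:**
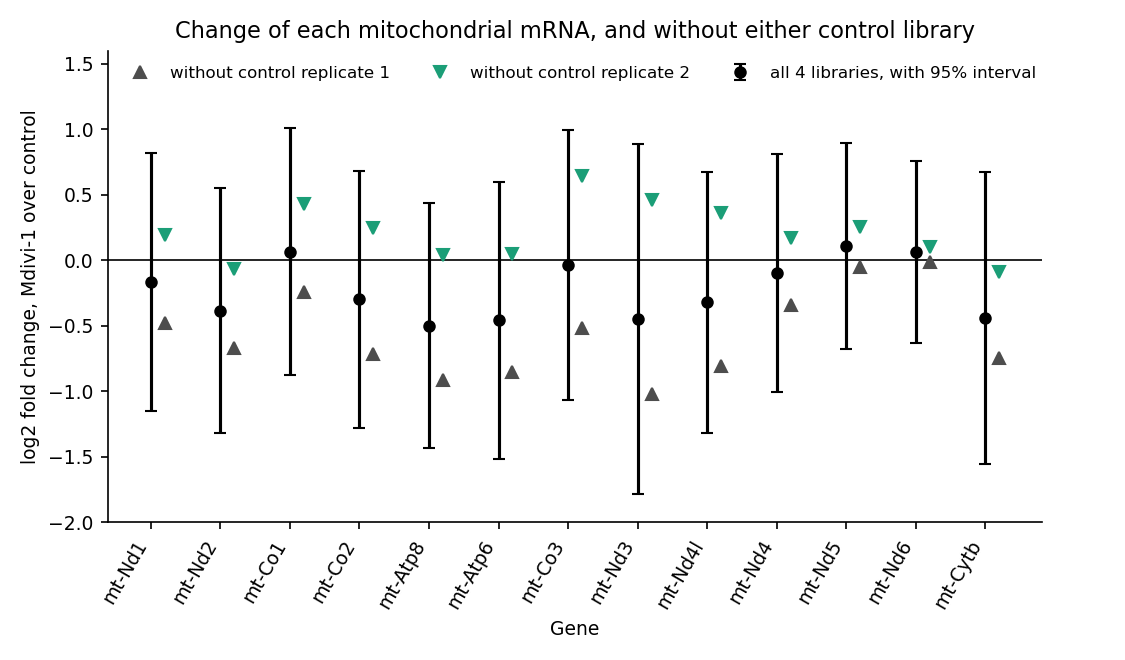
Fitted log2 fold change (Mdivi-1 over control) of each mitochondrial mRNA with its 95% interval from all 4 libraries (black), and the value without control replicate 1 or without control replicate 2 (coloured). Every interval crosses 0, all 13 values lie below 0 without control replicate 1, and 11 of 13 lie above 0 without control replicate 2.

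The direction of the fold changes rested on which control library was used. In control replicate 2 all 13 members were higher than in control replicate 1, by 0.13 to 1.50 on the log2 scale of TMM CPM with a median of 0.69, or by a median of 0.30 with 11 of 13 higher as shares of all counts, whereas between the Mdivi-1 libraries the median difference was -0.17 with 4 of 13 higher in replicate 2. Over the 12377 tested genes with counts in every library, the median difference between the controls was 0.01 (quartiles -0.65 and 0.61). Over the 1778 of these at a mean of at least 100 CPM in controls, it was 0.23 (quartiles -0.12 and 0.63). Without control replicate 1 all 13 fold changes were below 0 (median -0.67), and 3 passed the edgeR test. These were *mt-Cytb* (log2 fold change -0.74, adjusted p = 0.0234), *mt-Atp6* (-0.85, adjusted p = 0.0246) and *mt-Atp8* (-0.91, adjusted p = 0.0460), where 2.64% of 15577 genes passed as higher and 2.52% as lower. Without control replicate 2 the median was 0.19, 11 of 13 were above 0 and 0 passed, and *mt-Cytb* and *mt-Nd2* alone stayed below 0, at -0.09 and -0.07. With a single control library left, that library is assumed to vary as the treated ones do.

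The make-up of the mitochondrial mRNA pool does not depend on scaling between libraries, and no member passed a test on it. *mt-Cytb* made up 50.6% and 49.5% of mitochondrial mRNA counts in controls and 46.8% and 45.6% in treated embryos. *mt-Co1* made up 5.85% and 5.80% in controls and 7.45% and 7.90% after Mdivi-1. *mt-Nd5* made up 1.93% and 1.48% in controls and 2.12% and 2.37% after Mdivi-1. In these 3 genes the groups did not overlap, *mt-Cytb* being lower and the other two higher in treated embryos.

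*mt-Nd4* (6.42% and 5.70% in controls, 7.07% and 6.96% after Mdivi-1) and *mt-Nd1* (11.3% and 11.2% against 11.8% and 13.3%) were also higher without overlap. The remaining 8 members overlapped. Counted over all genes relative to the same sum, 30.9% were higher and 14.0% lower without overlap, so 4 of 13 higher and 1 of 13 lower was near the background, and each exact permutation p was 0.333 or above. Because parts of a whole move together, a lower share of the most abundant member raises the shares of others.

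**Figure D3:**
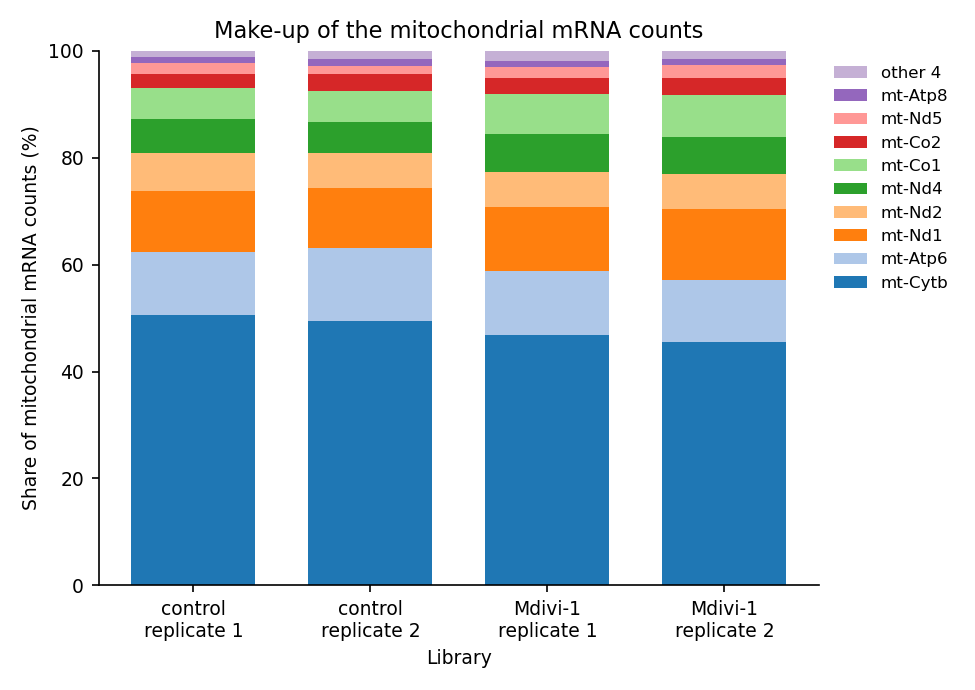
Share of all mitochondrial mRNA counts (%) taken by each gene in the 4 libraries, as stacked bars that add up to 100%. The *mt-Cytb* part is 50.6% and 49.5% in controls and 46.8% and 45.6% after Mdivi-1, while the *mt-Co1* part is 5.85% and 5.80% against 7.45% and 7.90%.

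The count ratio of 2 members follows from their shares given above, so it restates the contrast without the sum and adds no separate evidence. The count ratio of *mt-Co1* to *mt-Cytb* was 0.115 and 0.117 in controls and 0.159 and 0.173 in treated embryos. That of *mt-Nd5* to *mt-Cytb* was 0.0382 and 0.0300 in controls and 0.0453 and 0.0521 after Mdivi-1. Relative to *mt-Cytb*, 7 of the other 12 members were higher in both treated libraries than in both controls and 0 were lower, where 35.3% and 11.7% of all genes were. Each of these ratios had an exact permutation p of 0.333, the smallest that 2 against 2 libraries can give.

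Other ratios overlapped between groups or not, depending on the pair. Of all 78 pairs of members, 30 (38.5%) did not overlap. The ratio of *mt-Co3* to *mt-Atp6* was 0.0758 and 0.0910 in controls and 0.122 and 0.106 after Mdivi-1. That of *mt-Co1* to *mt-Co2* was 2.22 and 1.82 in controls and 2.51 and 2.52 after Mdivi-1. Both were higher without overlap (exact permutation p = 0.333 each). The ratios given next overlapped. The ratio of *mt-Nd6*, on the minus strand, to *mt-Nd5*, its neighbour on the plus strand, was 0.151 and 0.133 in controls and 0.152 and 0.120 after Mdivi-1. *mt-Nd4l* to *mt-Nd4*, which share an mRNA, gave 0.00491 and 0.00774 in controls and 0.00470 and 0.00666 after Mdivi-1. The 100-base windows shared with nuclear transcripts were 98.5% for *mt-Nd4l* and 60.8% for *mt-Nd4*, and only uniquely mapped reads were counted. The part of this in the size of the ratio was not tested. With the summed mitochondrial counts as library size, 0 of 13 members passed edgeR's quasi-likelihood test after adjustment (0.0% of all genes did), and 0 did at an unadjusted p under 0.05, against 8.71% of all genes higher and 2.31% lower. The smallest adjusted p, 0.492 by edgeR, was that of *mt-Co1* (log2 fold change 0.40, SE 0.19), and *mt-Cytb* had a log2 fold change of -0.12. DESeq2 was not run on this scale.

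Respiratory complexes join mitochondrial and nuclear subunits, so the level of the mitochondrial mRNAs was set against the nuclear subunits of the same complex. The nuclear sums cover only listed subunits that could be matched in the count table. These were 34 of 36 for complex I, 9 of 9 for complex III, 9 of 11 for complex IV and 16 of 17 for complex V. Summed TMM CPM of the 7 mitochondrial complex I genes was 20.1 and 18.6 times that of the 34 nuclear complex I genes in controls and 22.0 and 26.3 times in treated embryos. For complex IV the ratio was 5.92 and 6.56 in controls and 7.63 and 8.09 after Mdivi-1. In both complexes the treated libraries lay above the controls (log2 differences 0.31 and 0.33, exact permutation p = 0.333 each, the smallest possible). The mitochondrial sum alone and the nuclear sum alone overlapped between groups in both. For complex I the mitochondrial sum was 37367 and 56812 CPM in controls and 42610 and 40391 CPM after Mdivi-1. The nuclear sum was 1857 and 3052 CPM in controls and 1935 and 1535 CPM after Mdivi-1. For complex III the ratio was 83.3 and 104 in controls and 93.8 and 98.4 after Mdivi-1. For complex V it was 7.03 and 10.3 against 9.15 and 9.69, and both ratios overlapped. In complexes III and V the nuclear sum was lower in treated embryos without overlap, where 23.9% of single genes were. It was 841 and 1072 CPM in controls and 758 and 635 CPM after Mdivi-1 for complex III. For complex V it was 2545 and 3286 CPM against 2192 and 1803 CPM. Over all 4 complexes the ratio was 18.6 and 20.6 in controls and 20.9 and 22.7 in treated embryos (exact permutation p = 0.333).

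**Figure D4:**
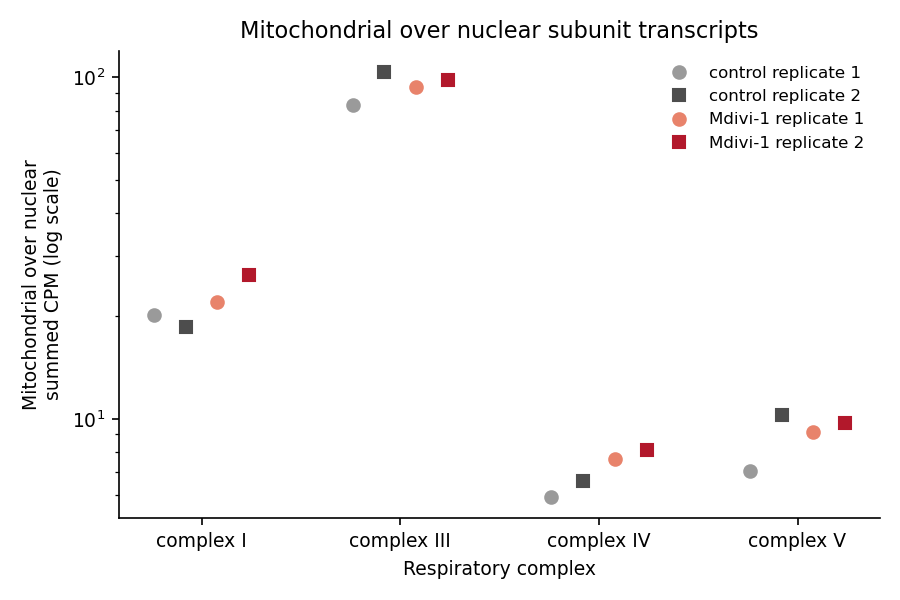
Summed TMM CPM of mitochondrial subunit genes divided by that of nuclear subunit genes of the same complex (log scale), for each library. The treated libraries lie above both controls for complex I (22.0 and 26.3 against 20.1 and 18.6) and complex IV (7.63 and 8.09 against 5.92 and 6.56), and between or beside them for complexes III and V.

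None of the nuclear subunits passed edgeR's test after adjustment, where 0 of all 14259 genes tested did. Of 68 nuclear subunit genes tested over the 4 complexes, 58 had fold changes below 0 with a median of -0.44, beside 6942 below 0 of 14259 and a median of 0.03 over all genes. By edgeR 0 passed after adjustment, where 0.0% of all genes did. At an unadjusted p under 0.05, 16 were lower and 0 higher, where 7.64% and 8.27% of all genes were. By DESeq2 5 passed as lower and 0 as higher, where 2.8% and 3.3% of all genes did. *Ndufs1*, the largest iron-sulphur subunit of complex I, was at 25.6 and 50.6 CPM in controls and 4.99 and 9.63 CPM after Mdivi-1, a log2 fold change of -2.38 (SE 0.55, edgeR adjusted p = 0.155, DESeq2 adjusted p = 0.00311). *Cox7c*, a small subunit of complex IV, was at 126 and 145 CPM in controls and 48.5 and 65.2 CPM after Mdivi-1 (log2 fold change -1.26, edgeR adjusted p = 0.170, DESeq2 adjusted p = 0.0138). *Ndufs8* and *Ndufb7* of complex I also passed as lower by DESeq2 (adjusted p = 0.0176 and 0.0282), with log2 fold changes of -1.40 and -1.55, and *Ndufc1* had one of -0.89.

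How far the nuclear subunits lay below 0 depended on the control library, as their summed level was 7433 and 10919 CPM in controls and 7250 and 6054 CPM after Mdivi-1. The median of complex I was -0.41 with all 4 libraries, -0.68 without control replicate 1 and -0.16 without control replicate 2. That of complex IV was -0.59, -0.87 and -0.28 in the same order, that of complex III -0.45, -0.83 and -0.59, and that of complex V -0.49, -0.60 and -0.28.

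The subunits of the other complexes with the smallest p in their lists were lower on average too, and none of them passed by either tool apart from *Cox7c*. In complex III the log2 fold changes were -1.39 for *Uqcr11*, -0.92 for *Uqcr10*, -1.27 for *Uqcrb* and -0.71 for the core protein *Uqcrc1*. In complex IV they were -0.83 for both *Cox4i1* and *Cox5a*, which contact the mitochondrial core, and -0.67 for *Cox6a1*. In complex V they were -1.03 for *Atp5j*, -0.85 for the catalytic-head subunit *Atp5a1*, -0.81 for *Atp5j2* and -0.87 for *Atp5md*.

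Mitochondrial RNA is made and processed by nuclear-encoded factors, and those were described from 6 lists with 98 genes tested. Of these 98, 69 had fold changes below 0 and 29 above, with a median of -0.42. By edgeR 0 passed after adjustment, where 0.0% of all genes did. At an unadjusted p under 0.05, 19 were lower and 5 higher, where 7.64% and 8.27% of all genes were. By DESeq2 5 passed as lower and 1 as higher, where 2.8% and 3.3% of all genes did. Of the genes tested in these 6 lists and the 4 lists of nuclear subunits, 14 of 165 (8.48%) passed edgeR's test without control replicate 1, where 5.16% of all genes did, and 1 of 168 (0.595%) without control replicate 2, where 2.39% did.

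Among 10 transcription genes the median was -0.42, and it was -0.85 without control replicate 1 and -0.08 without control replicate 2. *Tefm*, the elongation factor of the mitochondrial polymerase, was at 69.3 and 115 CPM in controls and 36.7 and 47.9 CPM after Mdivi-1 (log2 fold change -1.12, SE 0.36, edgeR adjusted p = 0.219). *Tfam*, which packages mitochondrial DNA and helps start transcription, was at 9.23 and 16.6 CPM in controls and 5.68 and 8.69 CPM after Mdivi-1 (adjusted p = 0.568 by edgeR). The promoter-melting factor *Tfb2m* had a log2 fold change of -0.39 and the terminator family member *Mterf3* one of 0.36, and both missed the threshold.

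Among 23 genes of RNA processing and turnover the median was -0.25 (-0.36 without control replicate 1, -0.16 without control replicate 2), and genes lay on both sides. *Trmt10c* and *Prorp*, which belong to the enzyme that cuts the 5′ ends of mitochondrial tRNAs, were lower in both treated libraries. *Trmt10c* was at 73.0 and 126 CPM in controls and 26.8 and 48.1 CPM after Mdivi-1 (log2 fold change -1.41, edgeR adjusted p = 0.201, DESeq2 adjusted p = 0.0311). *Prorp* was at 124 and 210 CPM in controls and 84.9 and 70.6 CPM after Mdivi-1 (-1.10, edgeR adjusted p = 0.217, DESeq2 adjusted p = 0.0481). On the higher side, *Rexo2*, which degrades very short RNAs, was at 13.1 and 17.1 CPM in controls and 43.6 and 39.3 CPM in treated embryos (1.46, edgeR adjusted p = 0.178, DESeq2 adjusted p = 0.0457). *Mtpap*, the mitochondrial poly(A) polymerase, was at 13 and 13.1 CPM in controls and 34.6 and 28.4 CPM after Mdivi-1, with no overlap (log2 fold change 1.27, SE 0.40, edgeR adjusted p = 0.217, DESeq2 adjusted p = 0.131). Since the libraries were primed on poly(A), the level of *Mtpap* is given here beside the mitochondrial mRNA values, and its part in them was not tested.

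The other 4 lists also had medians below 0. Without control replicate 1 and without control replicate 2, in that order, these were -0.39 and -0.46 for modification, 0.0063 and -0.54 for translation factors, -0.77 and -0.43 for DNA replication and nucleotide supply, and -0.68 and -0.40 for the nuclear regulators. Among 26 genes of tRNA and rRNA modification the median was -0.45, and *Trnt1*, which adds CCA to tRNAs, was at 165 and 136 CPM in controls and 65.2 and 89.2 CPM after Mdivi-1 (log2 fold change -0.96, edgeR adjusted p = 0.220). The demethylase *Alkbh1* and the methyltransferases *Nsun2* and *Trmt61b* had log2 fold changes of -0.91, -0.92 and -0.93. Among 15 translation factors the median was -0.34, with *Guf1*, a ribosome-bound GTPase, at 1.79 (edgeR adjusted p = 0.337), *Mtres1* at -0.50, *Mrrf* at -0.43 and the initiation factor *Mtif2* at -0.35. Among 17 genes of DNA replication and nucleotide supply it was -0.61, with *Twnk*, the replicative helicase, at 36.4 and 29.2 CPM in controls and 9.38 and 15.7 CPM after Mdivi-1 (-1.38, edgeR adjusted p = 0.218). The single-strand binding protein *Ssbp1* had a log2 fold change of -0.84 and the polymerase subunit *Polg2* one of -1.15. *Slc25a36*, a pyrimidine nucleotide carrier, was at 245 and 141 CPM in controls and 67.7 and 98.5 CPM after Mdivi-1 and passed as lower by DESeq2 (adjusted p = 0.0306) but not by edgeR (adjusted p = 0.213). All 7 nuclear regulators tested were below 0 with a median of -0.51, among them *Nrf1*, a transcription factor of respiratory genes, at 68.0 and 52.8 CPM in controls and 29.6 and 27.4 CPM after Mdivi-1 (log2 fold change -1.08, edgeR adjusted p = 0.213). *Pprc1* and *Gabpa* both had a log2 fold change of -0.67, and *Gabpb1* one of -0.44.

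**Figure D5:**
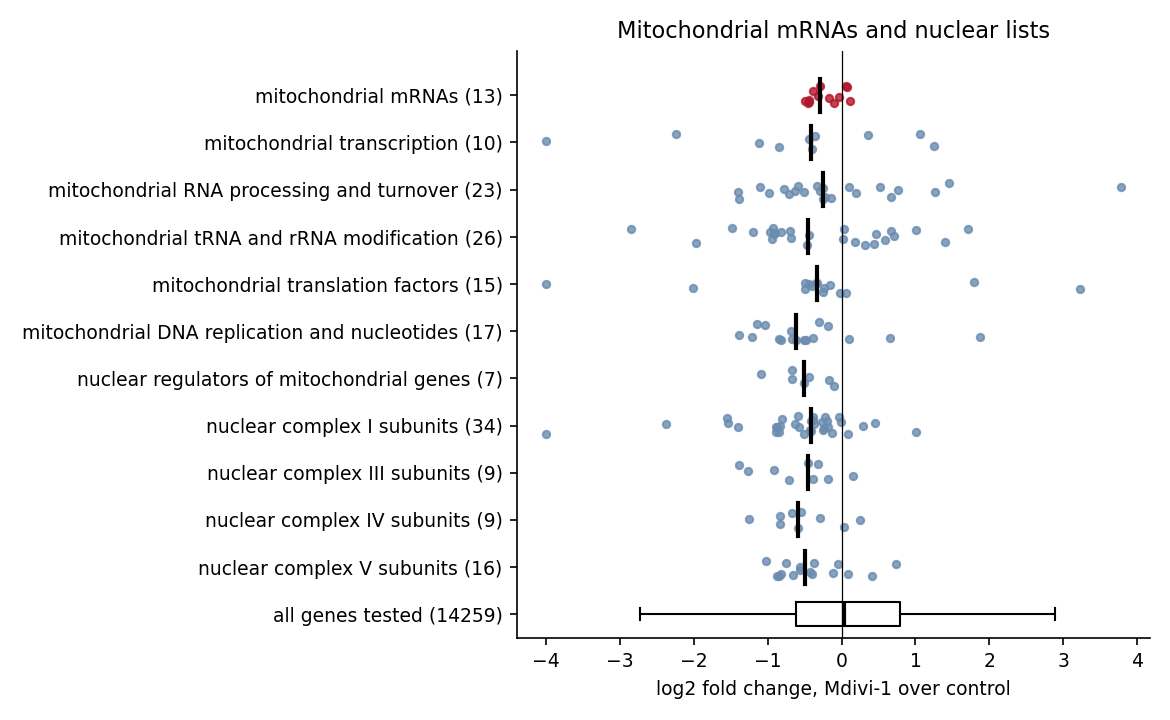
Fitted log2 fold change (Mdivi-1 over control) of every gene tested in the 13 mitochondrial mRNAs (red) and in 10 nuclear lists (blue), with each list's median as a black line. Values beyond 4 are drawn at 4. The medians of all 10 nuclear lists lie between -0.61 and -0.25, and that of the mitochondrial mRNAs at -0.30.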

How the data were processed

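Late 2C mouse embryos (2 control and 2 Mdivi-1 libraries, grouped by their titles) were profiled by RNA-seq. The authors trimmed reads with cutadapt 1.16, mapped them with STAR (version not given in the sources used here; build mm10 per the processing notes) and deposited raw counts of uniquely mapped reads in exons for 26022 genes. Also deposited are a signal (the count over a size factor of the library), its mean, and the log2 fold changes, Wald score and p-values of the authors' own DESeq2 comparison. These were not used.

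Genes with low raw counts were removed with filterByExpr (minimum count 10), scaled by TMM and tested with the two-sided quasi-likelihood test of edgeR 4.0.16 (R 4.3.3), with Benjamini-Hochberg adjustment over 14259 genes. Standard errors were worked back from that test. The biological coefficient of variation was 0.660. Sums and ratios, with 1 value a library, were compared by exact permutation tests. DESeq2 1.42.0, limma-voom of limma 3.58.1, the edgeR likelihood ratio test, other scalings and filters, the replicate number as a block and each library left out were alternatives, and the fits were tested on simulated data. Scaling by the summed mitochondrial counts, and sums without *mt-Cytb* or over *mt-Nd1*, *mt-Nd5*, *mt-Nd6* and *mt-Cytb*, were chosen after seeing the data. Those 4 genes had no shared 100-base windows, but 52.3% of *mt-Nd5* matched nuclear transcripts at 95% identity or more. *mt-Atp8* was left out of that sum, since its nuclear counterpart could not be searched.

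Named genes were all members, *Dnm1l* and, from each list, at most 4 genes of at least 10 mean CPM, taken by smallest p. Members and lists were chosen with earlier results of these data known. Start and end of all 13 members equal those in GENCODE M21 on GRCm38, from which sequences were taken. The planned ratios of rRNA and tRNA to mRNA were not analysed here.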

Additional observations from a re-analysis of the deposited data

How the results depend on the processing

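With 2 libraries a group, the exact test cannot give p below 0.333, and the values moved with the control library used. The count of mitochondrial mRNAs past the adjusted threshold was 0 with all 4 libraries and 0 to 3 when 1 library was left out, and the median log2 fold change, -0.30, ranged from -0.67 to 0.19. It was 3 only without control replicate 1. The ranges over the left-out libraries crossed 0 for *mt-Nd1* (-0.48 to 0.19), *mt-Co1* (-0.25 to 0.43), *mt-Co2* (-0.72 to 0.25), *mt-Atp8* (-0.91 to 0.042), *mt-Atp6* (-0.85 to 0.045), *mt-Co3* (-0.52 to 0.64), *mt-Nd3* (-1.02 to 0.46), *mt-Nd4l* (-0.81 to 0.36), *mt-Nd4* (-0.35 to 0.17), *mt-Nd5* (-0.049 to 0.25) and *mt-Nd6* (-0.12 to 0.19). Relative to the summed mitochondrial mRNAs they crossed 0 for *mt-Co2* (-0.066 to 0.21), *mt-Atp8* (-0.27 to 0.0018), *mt-Atp6* (-0.21 to 0.0041), *mt-Nd3* (-0.40 to 0.44) and *mt-Nd4l* (-0.19 to 0.34). The direction also turned for *mt-Co3*, to 0.16 with library totals only, 0.065 with limma-voom and 0.067 with the replicate block, and for *mt-Nd4*, to 0.0555 with library totals only. The cause was not tested. The replicate numbers share only a number (correlation of deviations 0.00809), and the replicate block gave 0 calls and a median of -0.22. With all 4 libraries, 0.0% of all genes tested passed edgeR's quasi-likelihood test after adjustment. Over the 10 nuclear lists 0 of 166 genes passed, against 9 of 169 (5.33%, all genes 4.38%) without the low-count filter, 11 of 166 by DESeq2 (6.63%, all genes 6.1%), 10 of 166 by the likelihood ratio test (6.02%, all genes 6.1%) and 0 to 14 with 1 library left out (14 without control replicate 1, 1 without control replicate 2). The log2 ratio of the summed share, -0.16, kept its sign under every alternative run, from -0.32 to -0.01 with 1 library left out, and was -0.29 by TMM CPM, -0.05 without *mt-Cytb* and -0.20 over *mt-Nd1*, *mt-Nd5*, *mt-Nd6* and *mt-Cytb*. Library totals only moved the median over all genes to 0.14 and that of the members to -0.12, with 5 above and 8 below 0, and limma-voom moved the latter to -0.18.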
